A study of Mus musculus with 6 samples.

Results

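The vacuolar proton pump (V-ATPase) is built from many subunits, and several of them are encoded by more than 1 gene. Described here are 10 such genes of the 23420 in the deposited count table, chosen by gene symbol as 5 pairs in which 1 gene is known for acid-secreting epithelia and the other is expressed broadly. The specialised genes are Atp6v1b1, Atp6v0a4, Atp6v0d2, Atp6v1g3 and Atp6v1c2, and their ubiquitous counterparts are Atp6v1b2, Atp6v0a1, Atp6v0d1, Atp6v1g1 and Atp6v1c1. All 10 were found in the table and all 10 passed the low-count filter.

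The pump hydrolyses ATP in its cytosolic V1 sector and carries protons through its membrane V0 sector. In most cells it acidifies lysosomes, endosomes and Golgi vesicles. In the intercalated cells of the collecting duct it also sits at the plasma membrane, where it moves acid into the urine or towards the blood, depending on the intercalated cell type, and loss of the human B1 or a4 subunit causes distal renal tubular acidosis. The forkhead factor FOXI1 is required in mice for intercalated cells to form.

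RNA came from kidneys of mouse embryos at embryonic day 18.5, from a cross of a wild-type female with a male heterozygous for a Six2-GFP transgene that marks the cap mesenchyme, the nephron progenitor tissue. Kidneys of transgenic embryos were dissociated apart from those of embryos without the transgene, and cells were sorted by GFP: positive cells are called Six2-high and negative cells Six2-low, with the gate set on kidneys lacking the transgene. Six2-low therefore holds every other kidney cell type that passed the scatter gates, intercalated cells among many, and in such bulk libraries fewer cells of a type and less RNA per cell cannot be told apart. Each fraction has 3 libraries of polyadenylated RNA, and the titles place a library of each fraction in every preparation. Preparation 1 has the tag 14_6 and the word TRI, preparation 2 the tag 17_7 and the word Norgen, preparation 3 the tag 17_7 and the word TRI. The sort was carried out in 3 experiments, but the labels do not say whether those of the shared tag used separate animals, so the p-values measure the spread between these libraries, which may in part be technical.

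Libraries held 23535399 to 29791421 counts. Six2, the gene of the sorting marker, was at 1224 ± 332 CPM (counts scaled to a common library size; mean ± SD, n = 3) in Six2-high, against 15.2 ± 7.05 CPM in Six2-low. Rn45s, the precursor of ribosomal RNA, made up 9.59% of the counts of Six2-high replicate 3 and at most 0.68% elsewhere, and it is named for that difference. All 12 genes of a cap mesenchyme list, which includes Six2 itself, were higher in Six2-high, beside 21.4% of all genes tested, with the smallest p for Spock2, Crym and Eya1 (log2 fold changes 4.51, 5.57 and 5.49). The list was chosen with earlier results of these data known, so its count is no support in itself.

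Promoter windows, from 250 bases before to 50 after the RefSeq start (build GRCm38.p6), were at hand for 6 of the 10 genes. They are shown for a specialised gene with a forkhead core, a specialised gene without one, and a ubiquitous gene with an E-box core, because forkhead factors act in intercalated cells and the lysosomal regulator TFEB is known to bind E-box sequences of pump genes. Capitals mark TGTTTA on either strand (forkhead core) or CACGTG (E-box core). The 3 windows are chr6:83742767-83743066 on the plus strand, chr6:38124537-38124836 on the minus strand and chr8:105566015-105566314 on the minus strand, in this order and each written 5′ to 3′ along its gene.
Atp6v1b1: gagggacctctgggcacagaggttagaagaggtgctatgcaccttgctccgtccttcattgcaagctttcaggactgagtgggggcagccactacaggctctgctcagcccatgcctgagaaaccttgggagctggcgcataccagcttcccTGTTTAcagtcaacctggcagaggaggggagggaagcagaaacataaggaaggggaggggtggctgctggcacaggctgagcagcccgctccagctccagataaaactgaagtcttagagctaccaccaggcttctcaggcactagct
Atp6v0a4: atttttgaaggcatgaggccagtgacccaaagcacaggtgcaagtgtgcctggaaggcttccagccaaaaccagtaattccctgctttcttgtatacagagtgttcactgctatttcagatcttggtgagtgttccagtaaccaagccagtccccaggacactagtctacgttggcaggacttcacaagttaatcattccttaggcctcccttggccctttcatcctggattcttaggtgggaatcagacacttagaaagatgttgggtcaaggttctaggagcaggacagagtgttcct
Atp6v0d1: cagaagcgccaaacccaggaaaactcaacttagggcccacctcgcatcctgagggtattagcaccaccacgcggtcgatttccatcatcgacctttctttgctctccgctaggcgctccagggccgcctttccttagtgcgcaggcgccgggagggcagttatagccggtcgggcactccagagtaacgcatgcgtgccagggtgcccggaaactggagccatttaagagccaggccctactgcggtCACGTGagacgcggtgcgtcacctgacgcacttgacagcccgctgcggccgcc

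The forkhead core of Atp6v1b1 begins 98 bases before the start, on the plus strand, and is the only one among the 6 windows (Atp6v1b1, Atp6v0a4, Atp6v1g3, Atp6v1c2, Atp6v0a1 and Atp6v0d1). The E-box core of Atp6v0d1 begins 3 bases before the start and is likewise the only one among them. Of 32851 promoter windows of this length, 13.4% hold a forkhead core and 7.15% an E-box core, so single matches are common and are given as descriptions.

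The 5 specialised genes were lower in Six2-high. Across the table, 28.7% of the 15347 genes tested were lower in Six2-high at an adjusted p under 0.05. The fit was edgeR's quasi-likelihood test with Benjamini-Hochberg adjustment over all genes tested, and a negative log2 fold change, given with its standard error (SE), means less in Six2-high. Of the 5 genes, 4 (all but Atp6v0a4) reached the filter level of 0.40 CPM in no Six2-high library and in all 3 Six2-low libraries. These 4 passed the filter only through the fraction where they are high, so their count is no support in itself.

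Atp6v1b1 encodes the B1 subunit of the V1 sector, which with subunit A forms the ATP-hydrolysing ring (chromosome 6, 83742990 to 83758855, plus strand). It was at 0.139, 0.211 and 0.344 CPM in Six2-high preparations 1 to 3 and at 39.2, 36.4 and 34.4 CPM in Six2-low. The 3 Six2-low libraries lay close together and far above every Six2-high library, and the mean was 159 times higher in Six2-low. The log2 fold change was -7.34 (SE 0.25, edgeR adjusted p = 5e-07).

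Atp6v1g3 encodes the G3 subunit of the peripheral stalk (chromosome 1, 138273738 to 138289462, plus strand). It had 1, 2 and 0 counts in the Six2-high libraries and 223, 177 and 344 counts in Six2-low, where its level was 8.25, 6.90 and 11.1 CPM. It was thus near the limit of detection in Six2-high and present in every Six2-low library. The ratio of summed counts, scaled by library size, was 216 in favour of Six2-low, with an exact Clopper-Pearson 95% interval of 73.6 to 1049 that covers counting error only. The log2 fold change was -7.58 (SE 0.50, edgeR adjusted p = 5.9e-06). It moved to -8.45 without Six2-high replicate 2, which held 2 of its 3 counts.

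Atp6v0d2 encodes the d2 subunit that couples the V1 and V0 sectors (chromosome 4, 19876841 to 19922605, minus strand). In mice it is also known from osteoclasts and macrophages. Its level was 0.209, 0.0844 and 0.0982 CPM in Six2-high, against 14.8, 11.0 and 13.6 CPM in Six2-low. The fractions did not overlap, as they did not for any of the 5 specialised genes (32.0% of all genes tested were lower without overlap), and the log2 fold change was -6.54 (SE 0.33, edgeR adjusted p = 1.9e-06).

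Atp6v1c2 encodes the C2 subunit, which takes part in the reversible assembly of the sectors (chromosome 12, 17284721 to 17329359, minus strand). It was at 0.313, 0.211 and 0.196 CPM in Six2-high, against 5.51, 5.81 and 6.68 CPM in Six2-low, the lowest Six2-low level of the 10 genes. The log2 fold change was -4.59 (SE 0.30, edgeR adjusted p = 5.8e-06). It shares 50 exon bases, 2.30% of its own, with Pdia6 on the opposite strand, which was at 225 ± 38.8 CPM in Six2-high, against 353 ± 44.3 CPM in Six2-low. The strand setting of the counting is unknown here, and the part of Pdia6 in the low counts of Atp6v1c2 was not tested.

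Atp6v0a4 encodes the a4 subunit of the proton path (chromosome 6, 38048483 to 38124586, minus strand). It was at 1.60, 1.14 and 2.50 CPM in Six2-high, against 26.5, 35.9 and 38.7 CPM in Six2-low. It was the only specialised gene above 1 CPM in every Six2-high library, and its Six2-low level was lowest in preparation 1, where that of Atp6v1b1 was highest. The log2 fold change was -4.28 (SE 0.29, edgeR adjusted p = 7e-06), the smallest of the 5. Atp6v0a4 shares 259 exon bases, 5.21% of its own, with D630045J12Rik on the same strand and 62 with Tmem213 on the opposite strand. D630045J12Rik was at 107 ± 36.6 CPM in Six2-high, against 52.7 ± 9.51 CPM in Six2-low, and Tmem213 at 0.126 ± 0.0215 and 18.5 ± 0.998 CPM. Reads in shared exons cannot be assigned with certainty, and their part in the level of Atp6v0a4 in Six2-high was not tested.

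**Figure D1:**
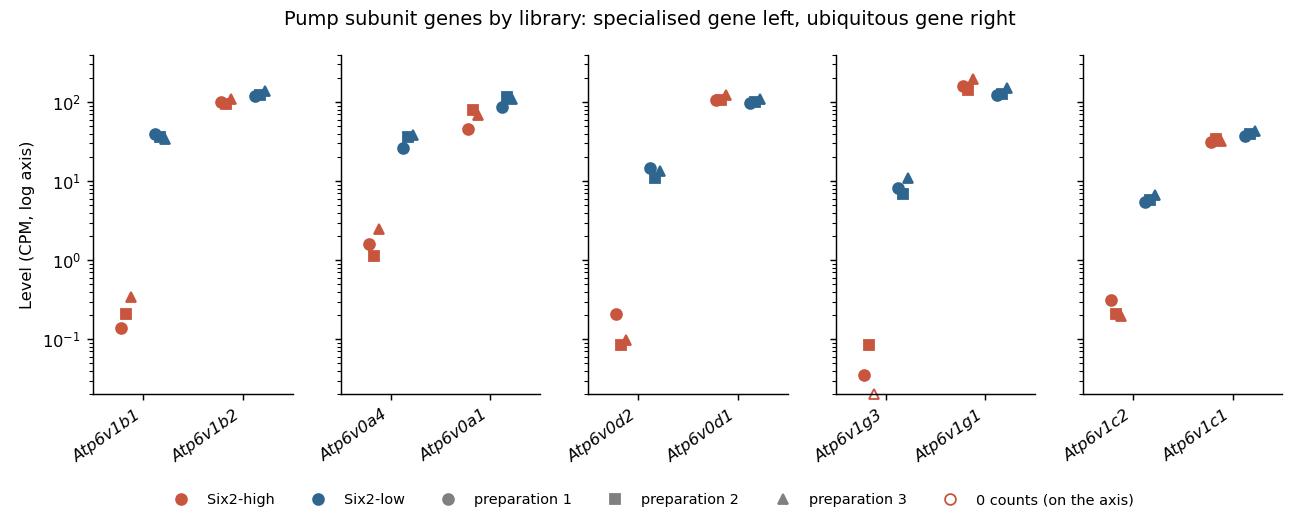
Level of the 10 pump subunit genes in CPM (log axis) in each of the 6 libraries, 1 panel per subunit, with the specialised gene on the left and the ubiquitous gene on the right. The specialised genes lie between 5.51 and 39.2 CPM in Six2-low and at or below 2.50 CPM in Six2-high, while the ubiquitous genes lie within 31.2 and 195 CPM in both fractions. The open symbol marks the library with 0 counts of Atp6v1g3.

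The 5 ubiquitous genes were far less different between the fractions. Of these, 2 were lower in Six2-high (Atp6v1b2 and Atp6v0a1), none was higher at the adjusted threshold in edgeR or DESeq2 (1 at an unadjusted p under 0.05 in edgeR), and 3 did not pass the test, while 50.1% of all genes tested were called in either direction. Their median log2 fold change was -0.30, beside 0.05 over all genes tested.

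Atp6v1b2 encodes B2, the B subunit of most cells (chromosome 8, 69088646 to 69113711). It was at 99.4, 95.5 and 110 CPM in Six2-high, against 120, 124 and 139 CPM in Six2-low. The fractions did not overlap, though the gap was small, and the log2 fold change was -0.32 (SE 0.11, edgeR adjusted p = 0.037). The call was lost without Six2-high replicate 1 or 2 or Six2-low replicate 2 or 3 (adjusted p = 0.068, 0.089, 0.088 and 0.15) and held with the preparation as a block (adjusted p = 0.005), a fit that called 64.6% of all genes tested in either direction.

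Atp6v0a1 encodes a1, the a subunit best known from neurons and present in many tissues (chromosome 11, 101009452 to 101063719). Its level was 46.0, 80.7 and 68.4 CPM in Six2-high, against 85.9, 115 and 109 CPM in Six2-low. Both fractions were lowest in preparation 1, and within each preparation Six2-low was higher. The log2 fold change was -0.67 (SE 0.21, edgeR adjusted p = 0.026). The call was lost without the Six2-high library of preparation 3 (adjusted p = 0.057) and without Six2-low replicate 2 or 3 (0.083 and 0.073), and with the block adjusted p was 0.00082.

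Atp6v1c1, encoding the broadly expressed C1 subunit (chromosome 15, 38661933 to 38692446), was at 31.2, 34.2 and 32.5 CPM in Six2-high, against 37.3, 39.6 and 43.5 CPM in Six2-low. The fractions did not overlap, but the difference of -0.30 (SE 0.11) missed the threshold (edgeR adjusted p = 0.057). It passed without Six2-low replicate 1 (adjusted p = 0.037) and with the block (adjusted p = 0.018). Atp6v0d1, encoding d1 (chromosome 8, 105524465 to 105566047), was at 106, 105 and 125 CPM in Six2-high, against 99.0, 99.9 and 108 CPM in Six2-low, where the fractions overlapped (log2 fold change 0.13, SE 0.11, edgeR adjusted p = 0.35).

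Atp6v1g1, encoding G1 (chromosome 4, 63544772 to 63550750), was at 162, 144 and 195 CPM in Six2-high, against 123, 126 and 149 CPM in Six2-low. The fractions overlapped, since Six2-low preparation 3 exceeded Six2-high preparation 2, yet Six2-high was the higher one within each preparation. The log2 fold change was 0.33 (SE 0.14, edgeR unadjusted p = 0.0456, adjusted p = 0.082), which made it the only ubiquitous gene higher at an unadjusted p under 0.05, and with the block adjusted p was 0.0079. Leaving out Six2-high replicate 2 also made it pass (adjusted p = 0.029). Groups of libraries did not overlap for 3 of the 5 ubiquitous genes, beside 60.0% of all genes tested.

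Per kilobase of merged exons, the order of the genes was led by the ubiquitous ones in both fractions. In Six2-low the levels were 117 ± 12.5 CPM per kb for Atp6v1g1, 57.1 ± 2.80 for Atp6v0d1, 24.0 ± 1.94 for Atp6v1b2 and 15.8 ± 2.37 for Atp6v0a1 (mean ± SD, n = 3 libraries). Atp6v1b1 followed at 8.37 ± 0.55 CPM per kb, above the ubiquitous Atp6v1c1 at 7.16 ± 0.56, and the ranges of these 2 genes did not overlap. Below them, the ranges of Atp6v1c1 and Atp6v0a4 (6.78 ± 1.28), of Atp6v0a4 and Atp6v0d2 (4.83 ± 0.71), and of Atp6v0d2 and Atp6v1g3 (4.64 ± 1.14) overlapped between neighbours. Atp6v1c2 was lowest at 2.76 ± 0.28 CPM per kb.

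In Six2-high all 5 ubiquitous genes stood above all 5 specialised genes, from 147 ± 23.0 CPM per kb for Atp6v1g1 down to 5.83 ± 0.27 for Atp6v1c1. The specialised genes ran from 0.351 ± 0.140 CPM per kb for Atp6v0a4 through 0.110 ± 0.0292 for Atp6v1c2 to 0.0210 ± 0.0225 for Atp6v1g3. The ranges of Atp6v1b1, Atp6v0d2 and Atp6v1g3 overlapped between neighbours. The lengths are those of the GENCODE M21 annotation, while that behind the counts was not stated in the labels, so levels of different genes are approximate.

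On this per-length scale the share of the specialised gene in the summed level of its pair differed between subunits. In Six2-low it was 29.9 ± 1.65% for subunit a, 27.8 ± 0.49% for subunit C and 25.9 ± 2.70% for subunit B (mean ± SD, n = 3). For subunit d it was 7.80 ± 1.10% and for subunit G 3.79 ± 0.55%. In Six2-high the shares were 3.60 ± 1.54% for a, 1.87 ± 0.56% for C and 0.270 ± 0.103% for B. For d the share was 0.0780 ± 0.0445% and for G 0.0161 ± 0.0179%. Pairs leave out further isoform genes. Among all 4 genes of subunit a, with Atp6v0a2 and Tcirg1 counted in, the share of Atp6v0a4 was 15.9 ± 2.35% in Six2-low and 1.01 ± 0.49% in Six2-high. Among the 3 genes of subunit G, with Atp6v1g2, that of Atp6v1g3 was 3.70 ± 0.54% and 0.0154 ± 0.0170%.

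**Figure D2:**
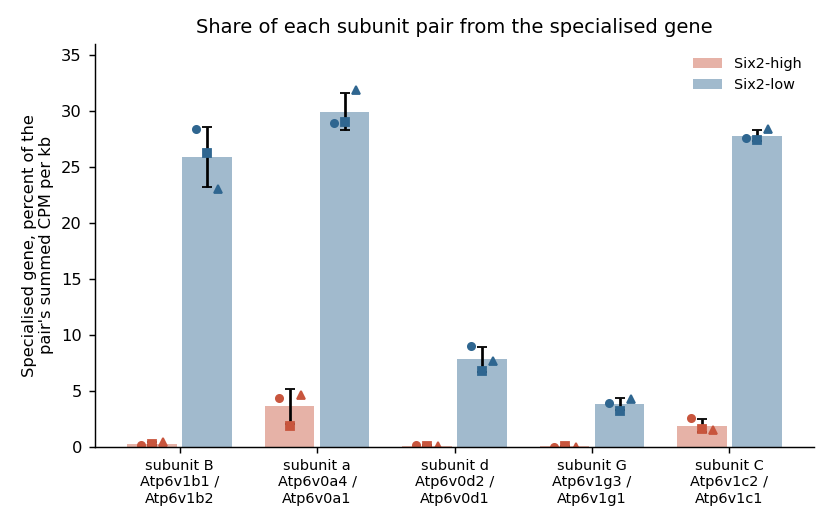
Share of each subunit pair that comes from the specialised gene, in percent of the pair's summed CPM per kilobase. Bars are means over 3 libraries, error bars are the SD, and symbols are the preparations (circle 1, square 2, triangle 3). In Six2-low the share is 25.9% to 29.9% for subunits B, a and C but 7.80% and 3.79% for subunits d and G, and in Six2-high it is at most 3.60%.

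Summed over each pair, the level in Six2-high lay below that in Six2-low for the pairs of subunits B, a and C. For B the sum was 19.2 ± 1.48 CPM per kb in Six2-high and 32.4 ± 1.46 in Six2-low. For a it was 10.3 ± 2.66 against 22.6 ± 3.57, and for C 5.94 ± 0.25 against 9.92 ± 0.84. In these 3 pairs the fractions did not overlap. Among all single genes tested, 32.0% were lower without overlap and 60.0% did not overlap in either direction. For d the sums were 62.6 ± 6.07 and 61.9 ± 2.97 CPM per kb and for G 147 ± 23.0 and 122 ± 13.6, and the fractions overlapped in both. Over all 4 genes of subunit a the sums were 36.6 ± 7.10 CPM per kb in Six2-high and 42.5 ± 2.95 in Six2-low, and there the fractions overlapped. These sums were not tested.

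Whether the genes of a pair changed unequally was tested within libraries, as the log2 ratio of the specialised to the ubiquitous gene (log2 CPM with a prior count of 2, which understates differences of genes near 0). For Atp6v1b1 over Atp6v1b2 the ratio was -8.42 ± 0.41 in Six2-high and -1.79 ± 0.20 in Six2-low, a difference of -6.63. For Atp6v1g3 over Atp6v1g1 the difference was -6.61 and for Atp6v0d2 over Atp6v0d1 it was -6.16. For Atp6v1c2 over Atp6v1c1 it was -3.98 and for Atp6v0a4 over Atp6v0a1 -3.56. Each of the 5 ratios was lower in Six2-high in each of the 3 preparations. Among all single genes tested, 32.0% were lower without overlap, and the share among other gene pairs was not computed. In 4 of the pairs the specialised gene reached the filter level only in Six2-low, so this count is no support in itself. The two-sided exact permutation test over the 6 libraries gave p = 0.1 for each pair and 0.1 adjusted over the 5 pairs, which is the smallest p that 3 against 3 libraries allow, so the design cannot reach 0.05. The paired exact sign-flip test over preparations gave p = 0.25, likewise the smallest it can give.

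The specialised genes differed in how much of their Six2-low level was seen in Six2-high of the same preparation. For Atp6v1b1 it was 0.355%, 0.579% and 0.999% in preparations 1 to 3, for Atp6v0d2 1.41%, 0.767% and 0.723%, and for Atp6v1g3 0.421%, 1.22% and 0%. For Atp6v0a4 it was 6.03%, 3.17% and 6.47%, and for Atp6v1c2 5.67%, 3.63% and 2.94%. Atp6v0a4 and Atp6v1c2 thus lay above the other 3 genes in every preparation, and this grouping was seen in the data and not tested.

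Marker lists of kidney cells also had median levels that were lower in Six2-high. Their genes were taken by their level in Six2-low, which favours low percentages, so these medians are no support in themselves. The median over all genes under this selection was not computed. Over markers with at least 1 CPM in Six2-low, the median level seen in Six2-high was 7.37%, 5.24% and 8.59% of Six2-low for 15 proximal tubule genes in preparations 1 to 3. It was 3.04%, 3.80% and 3.38% for 21 intercalated cell genes and 1.97%, 0.714% and 2.12% for 14 principal cell genes. It was 1.59%, 0.439% and 1.15% for 13 genes of the loop of Henle and distal tubule, and 1.74%, 1.75% and 1.97% for 15 macrophage and osteoclast genes. In preparation 2 the proximal, principal and loop medians and Atp6v0a4 were each at their lowest. The part of any of these cells in the levels of the pump genes was not tested.

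**Figure D3:**
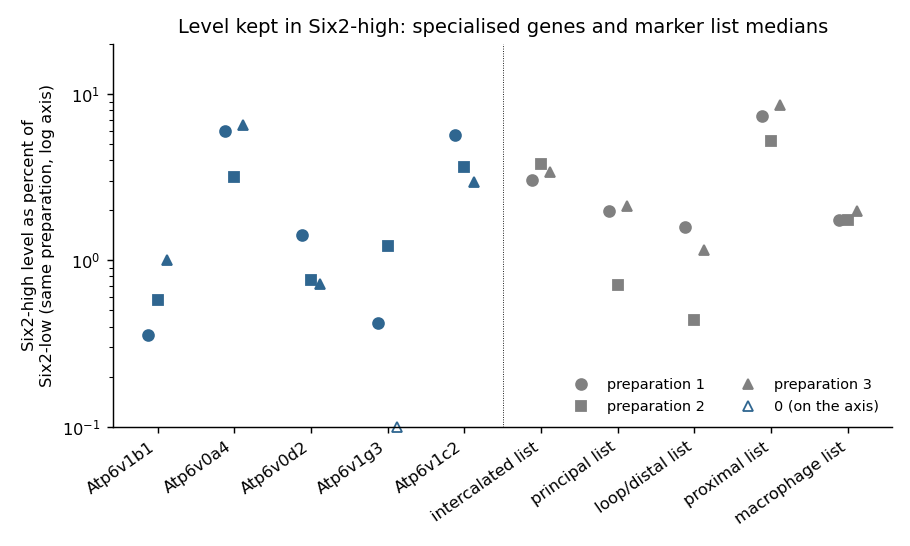
Level in Six2-high as percent of the level in Six2-low of the same preparation (log axis), with a symbol for each preparation. Shown are the 5 specialised genes and the medians of 5 marker lists, over markers with at least 1 CPM in Six2-low. Atp6v0a4 and Atp6v1c2 lie between 2.94% and 6.47%, the other specialised genes at or below 1.41%, and the proximal tubule median between 5.24% and 8.59%. The open symbol marks 0% for Atp6v1g3 in preparation 3.

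Of the 21 intercalated cell genes tested, 19 were lower in Six2-high and 2 higher, beside 28.7% and 21.4% of all genes tested, with a median log2 fold change of -4.72. Some of these genes, Foxi1 among them, reached the filter level in no Six2-high library and in all 3 Six2-low libraries. The count is therefore no support in itself. The summed level of the list was 111 to 133 CPM in Six2-high and 696 to 969 CPM in Six2-low. These sums rest on few genes and do not give the level kept by a typical gene of the list. Car12, named after its values were seen, was at 62.9 ± 5.88 CPM in Six2-high, against 87.5 ± 6.36 CPM in Six2-low. Slc4a1 alone was at 155 CPM in Six2-low preparation 1. No other gene of the list than the transcription factor gene Hmx2 had 0 counts in every Six2-high library. Hmx2, named for this, had 53, 9 and 16 counts in Six2-low and was below the filter. Foxi1 was at 0.0348, 0.169 and 0.196 CPM in Six2-high, against 21.4, 12.9 and 11.9 CPM in Six2-low (log2 fold change -6.89, SE 0.47, edgeR adjusted p = 6.8e-06). Its Six2-low level was highest in preparation 1, as was that of Atp6v1b1 and Atp6v0d2, while Atp6v0a4 and Atp6v1c2 were lowest there and Atp6v1g3 was highest in preparation 3. The ammonia transporter genes Rhcg and Rhbg had log2 fold changes of -6.73 and -7.04, and Tfcp2l1, a transcription factor gene of the collecting duct, one of -6.21.

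The higher genes of that list, named after their values were seen, were Slc26a7, an anion transporter gene, at 1.93 (SE 0.26, edgeR adjusted p = 0.00032), and Atp4a, encoding the catalytic subunit of the gastric proton-potassium pump, at 0.95 (SE 0.30, adjusted p = 0.027). The latter missed the threshold when Six2-high replicate 2 or 3 (adjusted p = 0.073 and 0.095) or any 1 Six2-low library (0.061 to 0.084) was left out. Slc4a1, the basolateral anion exchanger of acid-secreting intercalated cells and also a red cell protein, was at 155 CPM in Six2-low preparation 1 and 4.02 and 5.58 CPM in preparations 2 and 3. It was named after its values were seen, for this split between preparations. The scatter gate was set to leave out red blood cells, but the part of any such cells in this split was not tested.

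Other epithelial and immune lists held mostly lower genes as well, beside 28.7% lower and 21.4% higher among all genes tested. Any gene of these lists that passed the filter only through Six2-low carries the limit given above, so these counts too are no support in themselves. Of 14 principal cell genes 13 were lower and 1 higher (Hsd11b2, named after its values were seen), with Scnn1g and Scnn1b, sodium channel subunit genes, at -7.69 and -7.97 and the water channel gene Aqp3 at -6.89. All 15 proximal tubule genes tested were lower, with a median of -3.75. In this list the cystine transporter gene Slc7a9 was at -4.31, the transcription factor gene Hnf4a at -5.17 and the sodium-proton exchanger gene Slc9a3 at -5.75. Of 14 loop and distal genes 12 were lower and 1 higher (Trpm6, named likewise), with the salt transporter gene Slc12a1 at -7.73 and Umod, encoding uromodulin, at -6.57. Of 15 macrophage and osteoclast genes 14 were lower, among them C1qb, Csf1r and C1qc at -6.24, -6.27 and -6.07, and their summed level was 24.3 to 44.3 CPM in Six2-high and 252 to 303 CPM in Six2-low. The osteoclast fusion genes Ocstamp and Dcstamp were below the filter and not tested. Both are named after their values were seen. Ocstamp had 0 counts in Six2-high and 1, 2 and 1 counts in Six2-low, and Dcstamp had 4, 21 and 18 counts in Six2-high and 0, 2 and 5 in Six2-low.

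Of 15 genes of other pump subunits 13 were tested, and 5 were lower, 3 higher and 5 not called, with a median log2 fold change of -0.28. The shares of 38.5% lower and 23.1% higher are near the 28.7% and 21.4% of all genes tested. Atp6v1a, the only gene of the catalytic A subunit, was at 76.2, 71.6 and 82.9 CPM in Six2-high, against 149, 168 and 187 CPM in Six2-low. The fractions were well apart, with a log2 fold change of -1.13 (SE 0.12, edgeR adjusted p = 9e-05). Atp6ap2, encoding the accessory subunit also called the prorenin receptor, was at 32.6, 29.5 and 34.6 CPM against 71.4, 80.3 and 93.1 CPM (-1.34, SE 0.13, edgeR adjusted p = 5.4e-05). Both fell by more than any of the 5 ubiquitous genes.

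Atp6v1e1, encoding the stalk subunit E1, and Atp6v0e, encoding a small V0 subunit, changed by -0.53 (SE 0.12, edgeR adjusted p = 0.0077) and -0.48 (SE 0.15, adjusted p = 0.027) on the log2 scale. Atp6v0e lost its call when Six2-high replicate 2 or Six2-low replicate 1 or 3 was left out (adjusted p = 0.056, 0.056 and 0.092). The fifth lower gene was Atp6v0b, named after its values were seen, at -0.47 (adjusted p = 0.041), and it lost its call without Six2-high replicate 1 or 2 or Six2-low replicate 2 or 3 (adjusted p = 0.1, 0.059, 0.11 and 0.16). The list held 3 lower genes without Six2-high replicate 2 or without Six2-low replicate 3, and 9 with the preparation as a block.

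The higher genes were all alternative isoform genes. Atp6v0e2, the paralogue of Atp6v0e, was at 47.2, 36.8 and 43.2 CPM in Six2-high, against 24.8, 24.3 and 25.0 CPM in Six2-low (0.78, SE 0.13, edgeR adjusted p = 0.0011). Atp6v1g2, encoding the G subunit known from neurons, was at 11.0, 15.2 and 9.72 CPM against 7.36, 6.63 and 6.87 CPM (0.78, SE 0.20, edgeR adjusted p = 0.012). Tcirg1, encoding a3, the a subunit of osteoclasts and lysosomes, was at 86.8, 127 and 85.6 CPM against 68.1, 70.5 and 61.2 CPM (0.58, SE 0.17, edgeR adjusted p = 0.018). Six2-high preparation 2 was the highest library for the latter 2 genes. Tcirg1 did not pass without Six2-low replicate 1 or 3 (adjusted p = 0.057 and 0.069).

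Of the remaining isoform genes, Atp6v0a2, encoding the Golgi and endosome subunit a2, was at 31.0 ± 2.20 CPM in Six2-high, against 36.9 ± 4.42 CPM in Six2-low (-0.25, SE 0.13, edgeR adjusted p = 0.14, and 0.029 with the block). Atp6v1e2, known from testis, had 1 count in all libraries together. Atp6v0c, which encodes the proteolipid of the rotor ring, had 2 counts in all libraries together and was not tested; it is named after its values were seen. Pseudogenes of Atp6v0c are annotated in the genome, and the labels do not say how reads with several matches were counted, so its value is uncertain.

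**Figure D4:**
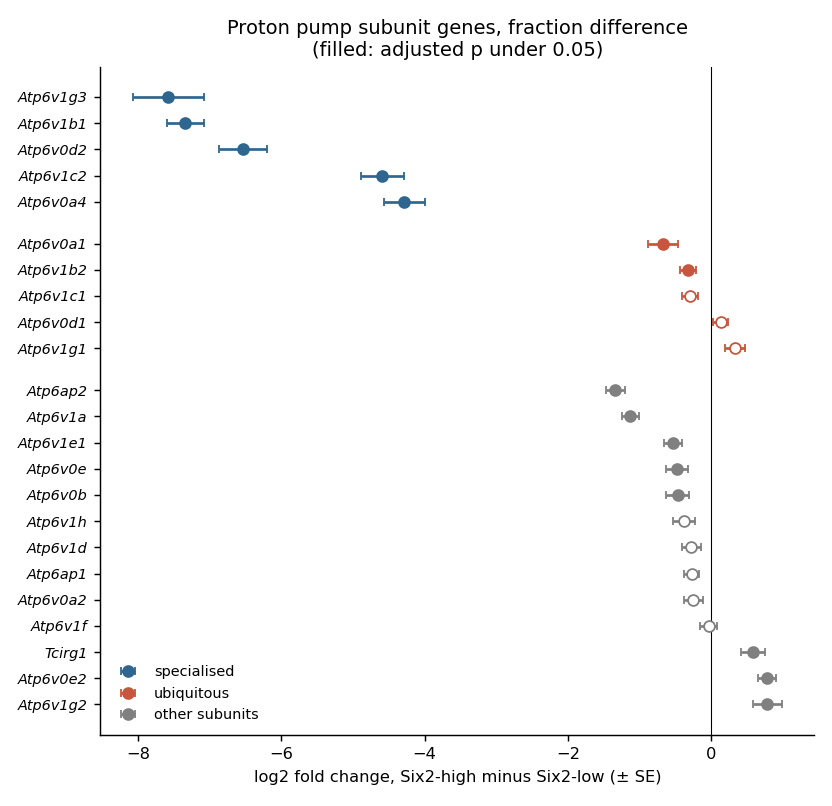
Log2 fold change of Six2-high minus Six2-low with its SE (edgeR) for the 23 pump subunit genes that were tested, filled where the adjusted p is under 0.05. The 5 specialised genes lie between -7.58 and -4.28, and the other 18 between -1.34 and 0.78.

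Of 13 genes for assembly and regulation of the pump 3 were lower and 4 higher in Six2-high, with a median of 0.06. These shares of 23.1% and 30.8% are near the 28.7% and 21.4% of all genes tested. Tm9sf4, encoding a protein that takes part in pump assembly, was at 201 ± 10.1 against 131 ± 4.05 CPM (0.62, SE 0.10, edgeR adjusted p = 0.00091). Oxr1, encoding a TLDc-domain protein of a family that binds the pump, was at 61.4 ± 11.1 against 114 ± 3.42 CPM (-0.89, SE 0.14, edgeR adjusted p = 0.00085). Tldc2, a gene of the same family listed as Gm1332, had log2 fold change -3.36 (SE 0.50, edgeR adjusted p = 0.00064) at 0.894 ± 0.205 CPM in Six2-low. Tldc2 reached the filter level in no Six2-high library and in all 3 Six2-low libraries, so its call is no support in itself. The higher genes numbered 2 without Six2-high replicate 3 or any 1 Six2-low library, and 6 with the block.

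Of 24 lysosome genes 14 (58.3%) were lower and none higher, beside 28.7% and 21.4% of all genes tested, with a median of -0.42, and the lower genes numbered 8 without Six2-low replicate 3. The number higher was 0 in edgeR also at an unadjusted p under 0.05, and 0 in the DESeq2 test and the other 13 alternatives. The smallest p were those of Ctsh, encoding cathepsin H, at -4.20 (SE 0.26), Neu1, encoding lysosomal sialidase, at -1.55 (SE 0.12), and Mitf, a transcription factor gene related to Tfeb, at -2.32 (SE 0.20).

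The genes most like each specialised gene were sought by the root mean square distance between log2 CPM profiles over the 6 libraries, each centred on its own mean. Only genes whose mean reached 1 CPM were taken, and predicted-gene symbols (Gm with digits, or ending in Rik) were left out. For Atp6v0a4 they were Amn, which encodes the membrane partner of cubilin, at a distance of 0.0445 log2 units, Slc5a8, a monocarboxylate transporter gene, at 0.0739, and Dao, encoding D-amino acid oxidase, at 0.112. For Atp6v1b1 they were Cldn19, a tight junction gene, at 0.194, Tmem255a at 0.199 and Aqp3 at 0.224. For Atp6v0d2 they were Itgam, encoding an integrin chain of myeloid cells, at 0.166, and Lgals3, encoding galectin 3, at 0.181. For Atp6v1g3 they were Ctss, encoding cathepsin S, at 0.262, Wfdc15b at 0.293 and the complement gene C1qc at 0.299, and for Atp6v1c2 BC064078 at 0.112, Lama1, a laminin gene, at 0.122 and Enpep, encoding aminopeptidase A, at 0.139.

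Among the specialised genes themselves, the nearest profiles were those of Atp6v0a4 and Atp6v1c2, at 0.398 log2 units, followed by Atp6v0d2 and Atp6v1g3 at 0.473. The most distant were Atp6v1b1 and Atp6v1c2 at 1.41. None of the 3 nearest genes of a specialised gene was another specialised gene. With 6 libraries in 2 fractions, most of each profile is the fraction difference, so these distances are descriptions of these libraries.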

How the data were processed

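Raw counts per gene symbol were deposited for 6 libraries, and the deposited normalised signal equals those counts divided by 1 factor per library (within 0.000563% for genes above 1000 counts), so the counts were used. Build mm10 and the tools HTSeq 0.6.1p1, TopHat2 2.1.0, DESeq2, SAMtools and TopHat are listed, without roles, in the submitters' processing notes. The gene annotation and the strand setting were not stated in any source used. Counts were filtered with filterByExpr (10 counts at the median library size, in 3 libraries), scaled by TMM and fitted with edgeR 4.0.16 in R 4.3.3 over 15347 genes, without a block. Levels are CPM on the TMM-scaled library size. Alternatives were RLE scaling, DESeq2 1.42.0, no low-count filter, the preparation as replicate block, a 2-fold threshold and leaving out libraries or preparations. Titles pair the libraries by preparation, and libraries of 1 preparation deviated together from their fraction's mean (Pearson correlations over genes 0.37, 0.42 and 0.33). Replicates differed beyond sampling noise (chi-square per degree of freedom 16.9 to 212). Positions and exon lengths are from GENCODE M21 (GRCm38, the build mm10), and promoters from RefSeq. Named were all 10 members, the isoform genes and the 4 largest called changes among other subunits, the 3 smallest p per list, the 3 nearest patterns per specialised gene, Six2 and Foxi1. Other names are marked in the text, apart from genes that share exons with a member. Some genes that this rule names are not reported here. The members and lists were chosen with earlier results of these data known, and lists are described by counts and medians. The fit was tested on simulated counts with few changed genes, drawn at random in either direction. In the data 50.1% of the genes tested were called, so that check does not cover the scaling of these libraries.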

Additional observations from a re-analysis of the deposited data

How the results depend on the processing

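All 5 specialised genes were called lower in each of 14 alternatives, with log2 fold changes from -7.74 to -7.03 for Atp6v1b1, -8.60 to -6.93 for Atp6v1g3, -7.11 to -6.30 for Atp6v0d2, -4.94 to -4.39 for Atp6v1c2 and -4.62 to -4.01 for Atp6v0a4. For the 4 that reach the filter level only in Six2-low (all but Atp6v0a4), these repeated calls are no support in themselves. The ubiquitous genes called lower numbered 2, and 1 without the low-count filter, 0 against a 2-fold change and 0 to 3 with 1 library left out. They numbered 3 without both libraries of replicate 1, 1 without both of replicate 2, 0 without both of replicate 3 and 3 with the replicate block. Called higher were 0, and 1 with the replicate block or, at most, with 1 library left out. The cause was not tested. Over all genes, 4401 were lower and 3285 higher, 2662 and 546 against a 2-fold change, 5059 and 4860 with the replicate block, and 3915 to 4579 and 2160 to 3183 with 1 library left out. Genes higher numbered 2926 without both libraries of replicate 1, 2086 without both of replicate 2 and 1329 without both of replicate 3. Genes lower numbered 4546, 3872 and 3300 in the same fits, and the cause of these differences was not tested. The pair differences kept their sign in 10 alternatives each, from -7.91 to -6.22 for G, -7.02 to -6.41 for B, -6.67 to -5.98 for d, -4.29 to -3.89 for C and -3.79 to -3.13 for a. Not all of these could change it: the replicate block leaves the difference as it is, and scaling nearly cancels within a ratio. For the 4 pairs whose specialised gene reaches the filter level only in Six2-low, the kept sign is no support in itself. Apart from the calls given in the report, the block changed none of the specialised genes' calls. Depth limits Atp6v1g3 most, at 3 counts in Six2-high.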
